A study of Mus musculus with 8 samples.

Results

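The comparison of Vdr genotype under IFN-γ used 4 of the 8 arrays of the series, those of macrophages treated with IFN-γ, and set 2 Vdr-/- arrays against 2 wild-type arrays. Within each genotype 1 array came from cells given IFN-γ alone and 1 from cells given IFN-γ with calcitriol (1α,25-dihydroxyvitamin D3), so that the arrays formed 2 pairs, each with 1 array per genotype. All cells were bone marrow-derived macrophages, cultured for 7 days in 50 ng/ml M-CSF, the growth factor of this lineage, and treatment lasted 24 to 48 hours. The labels also describe macrophages elicited with thioglycolate, but name bone marrow as the source of these samples. The Vdr-/- mice carried the Vdr tm1 Rge allele. The sources used here do not state the mice's strain, age or sex, any pooling of marrow, or the doses of IFN-γ and calcitriol. The 4 arrays without IFN-γ (untreated or calcitriol alone, 1 array per genotype) served as a separate look at the same genotype difference. No combination of genotype and treatment had a second array. An effect of genotype and one of the particular mice or cultures therefore cannot be told apart. The p-values for genotype set a difference against the usual disagreement of the 2 pairs among probe sets of like signal. They do not use a probe set's own disagreement between its pairs. All 22626 probe sets other than array controls were taken, and 15377 of them were bright enough to be tested, covering 9034 named genes.

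The vitamin D receptor is a nuclear receptor that pairs with the retinoid X receptor and binds short direct repeats in DNA when calcitriol is present. Macrophages express it, and they can also make calcitriol themselves through the enzyme encoded by Cyp27b1, while Cyp24a1 encodes the enzyme that degrades the hormone and is a classical target of the receptor. IFN-γ, the main activating cytokine of macrophages, acts through JAK kinases to raise antigen presentation, GTPases that act on intracellular microbes, and chemokines. The comparison therefore asks which transcripts of activated macrophages differed where the receptor gene was disrupted.

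Each value is the linear signal of a probe set, a group of short probes to 1 transcript, and the authors had scaled all arrays to the same trimmed mean. Median signals were 53.4 to 59.5 on the 4 IFN-γ arrays. Their log2 signals correlated with Pearson's r of 0.808 to 0.883 across the tested probe sets, which are not independent replicates. The 2 Vdr-/- arrays had r of 0.883 and the 2 wild-type arrays 0.808, with 0.842 and 0.838 between the genotypes within the IFN-γ pair and the IFN-γ with calcitriol pair. The Gapdh ratio of 3' to 5' signal, which rises when labelled RNA is truncated, was 3.06 on the Vdr-/- IFN-γ array and 1.04 to 1.65 on the other three, while the actin ratio was 1.48 to 1.81 on all 4. Its part in the genotype differences was not tested.

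Vdr itself, the disrupted gene, followed the labels in both pairs. Its first probe set read 82.9 (wild type) and 2.5 (Vdr-/-) in the IFN-γ pair, and 385.9 and 23.6 in the pair with calcitriol. The groups did not overlap, and the wild-type array with calcitriol was the highest. Vdr differed by -3.25 log2 (SE 0.791, 95% interval -4.80 to -1.70, limma adjusted p = 0.0319), and by -2.14 log2 without the wild-type array with calcitriol. The second probe set read 84.4 and 45.6 in the first pair and 226.7 and 25.0 in the second, and its difference of -2.03 log2 did not pass the test (adjusted p = 0.495). No source used here places these probes relative to the disrupted exons. On the untreated arrays the order was the reverse of the labels, with 5.3 in the array labelled wild type and 63.2 in the array labelled Vdr-/-.

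The cells carried macrophage markers in both genotypes. Csf1r, the receptor for M-CSF, read 18249.7 and 18893.0 (wild type and Vdr-/-) with IFN-γ and 9768.9 and 18431.6 with IFN-γ and calcitriol. Adgre1 (F4/80) read 4057.8 and 2610.1, then 2671.2 and 3414.7, and Lyz2, lysozyme, stayed between 16652.0 and 19935.8. Of 28 tested macrophage identity genes 0 were called, and 5 had an unadjusted p under 0.05. Over all 9034 genes, by their brightest probe set, 13 were called (0.144%) and 497 had an unadjusted p under 0.05 (5.5%). The list's median difference was -0.02 log2, as against -0.03 over all genes tested. Some markers of other cells were dim on all 4 arrays. The highest signal was 17.8 for S100a9 (neutrophils), 56.2 for Col1a1 (fibroblasts) and 35.4 for Cd3e (T cells). It was 49.3 for Ms4a1 (B cells) and 57.6 for Hba-a1 (erythroid cells). These markers do not stand for their whole lists, which also held genes bright enough to be tested. Of the genes with a probe set, 6 of 14 were tested in the neutrophil list and 9 of 19 in the stromal list. In the T, B and NK cell list 7 of 17 were tested, and in the erythroid, megakaryocyte and mast cell list 9 of 15. The summed signal of the neutrophil list ran from 660.0 to 1230.0 in wild type and from 702.0 to 1050.0 in Vdr-/-, and that of the stromal list from 723.0 to 845.0 and from 576.0 to 642.0. The T, B and NK cell list summed to 1570.0 to 2330.0 and 2130.0 to 2720.0. Xist, the X inactivation transcript, was present on all 4 arrays (848.2 to 1905.6 by its brightest probe set), and the Y-linked Eif2s3y read at most 27.0.

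The 2 pairs shared little of their genotype difference. In the IFN-γ pair 1605 probe sets were more than 2-fold higher and 2121 more than 2-fold lower in Vdr-/-, and in the IFN-γ with calcitriol pair 1745 and 2120. Across the 15377 probe sets the differences of the 2 pairs had a Pearson's r of -0.008, and of -0.005 over the 8036 probe sets that reached the pooled median signal of 56.6 on all 4 arrays. The plot of one pair's differences against the other shows a cloud around 0 with no slope. The standard deviation of the differences was 1.06 and 1.09 log2.

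**Figure D1:**
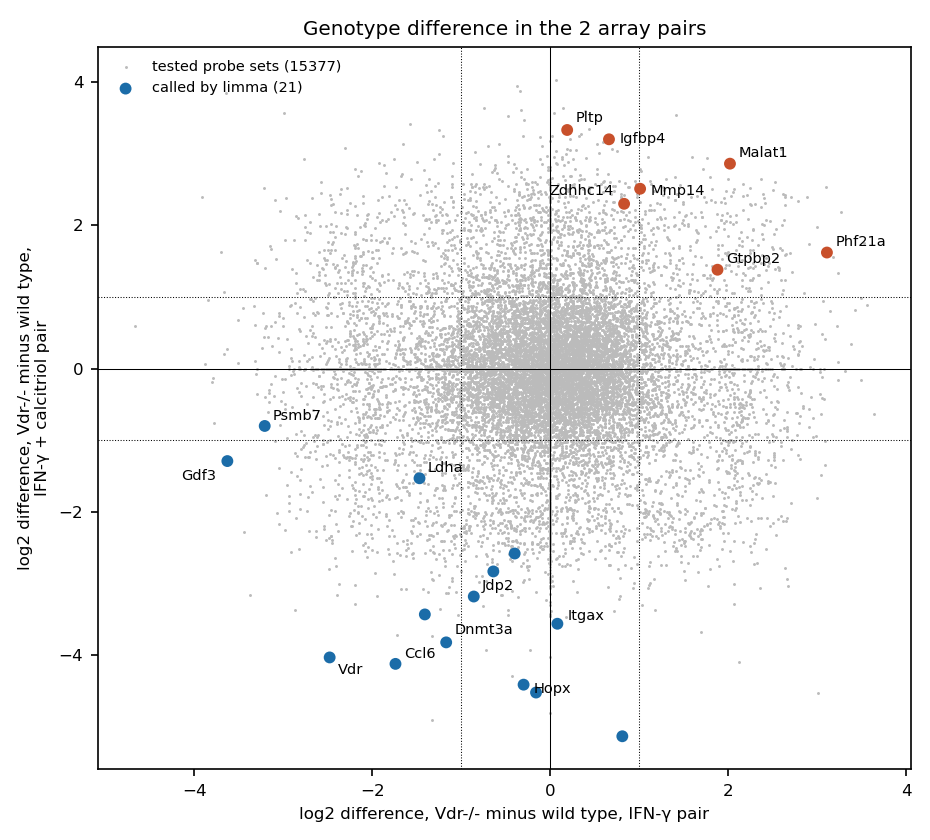
Genotype difference (log2, Vdr-/- minus wild type) of each tested probe set in the IFN-γ pair (horizontal axis) and in the IFN-γ with calcitriol pair (vertical axis). Each grey point is 1 of 15377 tested probe sets, coloured points are the 21 called by limma (orange higher and blue lower in Vdr-/-), and dotted lines mark 2-fold; named genes are labelled once. The grey points form a cloud with no slope (r = -0.008), and 17 of the 21 coloured points lie farther from 0 on the vertical than on the horizontal axis.

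Over both pairs limma called 21 probe sets for genotype, which is 0.137% of those tested. The call needs a Benjamini-Hochberg adjusted p under 0.05 over all tested probe sets. Of the 21, 7 were higher in Vdr-/- (0.0455% of those tested) and 14 lower (0.091%), and 822 had an unadjusted p under 0.05. They named 16 genes, and 3 probe sets had no single gene name. The difference had the same direction in both pairs for 19 of the 21, and was past 2-fold in both for 10. The genotypes did not overlap for 18 of the 21, while 35.8% of all tested probe sets had no overlap. The calls hung on how the spread was estimated: limma took each probe set's spread from the trend with signal and gave no weight to its own 1 residual degree of freedom. With no intensity trend, no signal filter, a filter on the mean signal, or the spread of all 8 arrays, 0 were called. The same held with 1 genotype term over all 8 arrays. All 21 kept their direction in these settings and with any of the 4 arrays left out. Only the single genotype term and the left-out arrays could change the difference, which the other settings keep by construction.

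The wild-type array with IFN-γ and calcitriol stood apart in most of the called probe sets. It was more than 2-fold above each of the other 3 arrays in 11 of the 21 and more than 2-fold below each of them in 4, together 71.4%, against 10.8% of all tested probe sets. The call favours large differences, so these shares are a description of the 21. The wild-type IFN-γ array stood apart in this way in 2 of the 21, the Vdr-/- IFN-γ array in 3 and the Vdr-/- array with both in 2. In 17 of the 21 the difference was larger in the pair with calcitriol, against 50.4% of all tested probe sets.

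**Figure D2:**
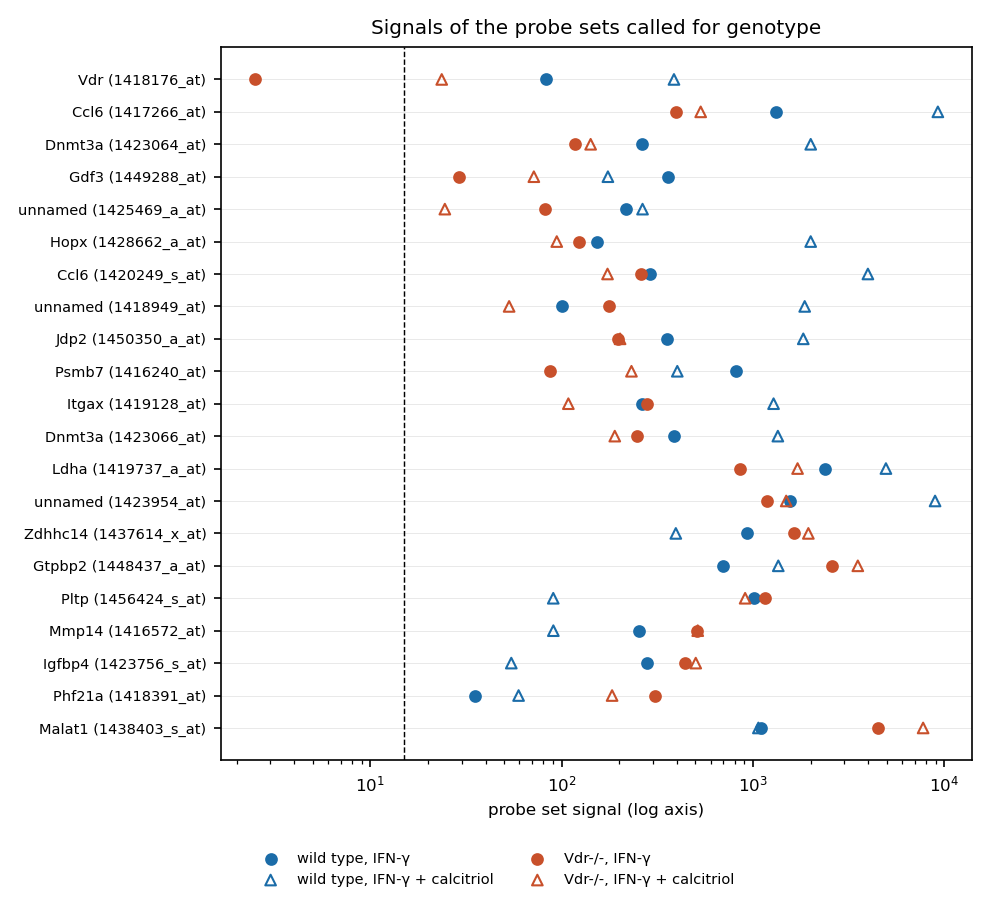
Signal (log axis) on each of the 4 IFN-γ arrays for the 21 probe sets called for genotype, lowest in Vdr-/- at the top; circles are IFN-γ, triangles IFN-γ with calcitriol, blue wild type and orange Vdr-/-, and the dashed line is the floor of 14.9. The open blue triangle lies far to the right of the other 3 symbols for Ccl6, Dnmt3a and Hopx, and far to the left for Pltp.

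Genes lower in Vdr-/- included a chemokine, a DNA methyltransferase and regulators of transcription. Ccl6, a CC chemokine made by mouse myeloid cells, read 1321.2 (wild type) and 395.2 (Vdr-/-) in the IFN-γ pair, and 9237.2 and 532.3 in the pair with calcitriol. The genotypes did not overlap, and the wild-type array with calcitriol was the highest by far. Ccl6 differed by -2.93 log2 (SE 0.359, limma adjusted p = 5.66e-12), or 7.62-fold, by -1.74 log2 in the IFN-γ pair, and by -1.53 log2 over 3 arrays without the wild-type array with calcitriol. Its second probe set read 287.7 and 258.1, then 3980.6 and 173.5, so that it differed by -0.16 log2 in the first pair and by -4.52 in the second (mean -2.34, adjusted p = 1.26e-05, and -0.44 without that array). The size of the Ccl6 difference thus rests mainly on the pair with calcitriol. Dnmt3a, which sets new DNA methylation, read 262.5 and 116.7, then 2000.4 and 141.6 (-2.49 log2, SE 0.424, adjusted p = 1.55e-05, and -1.03 without that array). A second Dnmt3a probe set was also called (-1.74 log2, adjusted p = 0.02, and -0.83 without it), and the other three gave -1.32, 0.03 and 0.50 log2, none of them called. Without the wild-type IFN-γ array instead, the second Ccl6 probe set gave -4.23 log2 and the called Dnmt3a probe sets -3.96 and -2.64.

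Hopx, a homeodomain protein that does not bind DNA itself, read 152.1 and 123.7 with IFN-γ, then 1999.7 and 94.2 with IFN-γ and calcitriol (-2.35 log2, SE 0.446, limma adjusted p = 0.000402). Jdp2, a repressor of the AP-1 family, read 356.7 and 196.9, then 1829.0 and 201.8 by the called probe set (-2.02 log2, SE 0.403, adjusted p = 0.00138). The mean over the 2 Jdp2 probe sets was smaller, -0.96 log2, and the other one was not called. Itgax, the CD11c integrin chain of dendritic cells and some macrophages, read 263.4 and 277.8, then 1279.2 and 108.3 (-1.74 log2, SE 0.42, adjusted p = 0.0293). These genes share 1 pattern: a single high array, wild type with both agents, and 3 arrays at lower levels. Without that array the differences were -0.49 log2 for Hopx, -0.84 for Jdp2 and -0.60 for Itgax, and without the wild-type IFN-γ array -4.21, -3.20 and -2.88. Itgax gave -1.06 log2 without the Vdr-/- array with both agents. For Itgax the genotypes overlapped, since Vdr-/- was the higher of the first pair. Called probe sets with no single gene name gave -2.16 and -1.49 log2 with the same high array, -0.05 and -0.23 without it, and -4.27 and -2.75 without the wild-type IFN-γ array. The first of these was higher in Vdr-/- in the IFN-γ pair, by 0.81 log2, and gave -1.30 without the Vdr-/- array with both agents.

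The difference was larger in the IFN-γ pair for Gdf3 and Psmb7, and nearly the same in both pairs for Ldha. Gdf3, a growth factor of the TGF-β family, read 358.8 and 29.0 with IFN-γ and 174.3 and 71.5 with both (-2.46 log2, SE 0.576, limma adjusted p = 0.0221). Psmb7, a catalytic subunit of the standard proteasome, read 809.5 and 87.3, then 401.7 and 231.4 (-2.0 log2, SE 0.43, adjusted p = 0.00703, and -1.30 without the Vdr-/- IFN-γ array). For both genes the wild-type arrays lay above the Vdr-/- arrays, and the larger difference was in the IFN-γ pair, whose Vdr-/- array had the Gapdh ratio of 3.06; the part of that ratio was not tested. Ldha, the lactate dehydrogenase chain of glycolytic cells, read 2370.1 and 852.7, then 4944.6 and 1707.6 (-1.5 log2, SE 0.357, adjusted p = 0.0257, and -0.97 without the wild-type array with calcitriol). Its differences in the 2 pairs, -1.47 and -1.53 log2, were nearly equal, and in both genotypes the array with calcitriol had the higher signal, the wild-type one more than 2-fold above each other array. The remaining called probe set with no single gene name read 216.4 and 81.7, then 264.4 and 24.5 (-2.42 log2, adjusted p = 0.0293, and -1.55 without the Vdr-/- array with calcitriol).

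Promoter sequence was searched for the 6-base half-sites that the receptor binds, because the comparison concerns a DNA-binding receptor. RefSeq start sites on the GRCm38.p6 assembly gave windows of 250 bases before and 50 after the start for 7 of the 9 named lower genes and 6 of the 7 named higher genes. Half-sites were AGGTCA with its variant GGGTCA, and likewise AGTTCA with its variant GGTTCA, on either strand, and a full DR3 element was taken as 2 such half-sites in 1 orientation with 3 bases between them. No DR3 element was found in these windows, and 13 of all 32851 windows hold one (0.0396%). A half-site was present in 4 of the 13 windows of the lower genes and in 0 of the 7 windows of the higher genes, while 43.7% of all windows hold one. The 250 bases before the start are shown for the 4 lower genes with a half-site, read 5′ to 3′ on the gene's strand, with the half-site in capitals. They are Ccl6 (chr11:83593088-83593337, minus strand, first base of the half-site at -88 from the start), Dnmt3a (chr12:3891494-3891743, plus, -76), Jdp2 (chr12:85599166-85599415, plus, -190) and Vdr (chr15:97908297-97908546, minus, -91).
Ccl6: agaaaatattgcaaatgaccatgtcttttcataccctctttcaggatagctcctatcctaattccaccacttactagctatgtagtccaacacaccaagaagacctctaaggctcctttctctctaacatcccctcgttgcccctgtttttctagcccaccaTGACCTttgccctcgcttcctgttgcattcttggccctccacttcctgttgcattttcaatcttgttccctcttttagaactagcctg
Dnmt3a: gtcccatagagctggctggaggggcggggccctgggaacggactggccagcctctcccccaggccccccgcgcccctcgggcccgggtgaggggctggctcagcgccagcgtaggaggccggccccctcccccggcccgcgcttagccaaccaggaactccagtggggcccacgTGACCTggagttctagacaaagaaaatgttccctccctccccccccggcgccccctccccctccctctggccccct
Jdp2: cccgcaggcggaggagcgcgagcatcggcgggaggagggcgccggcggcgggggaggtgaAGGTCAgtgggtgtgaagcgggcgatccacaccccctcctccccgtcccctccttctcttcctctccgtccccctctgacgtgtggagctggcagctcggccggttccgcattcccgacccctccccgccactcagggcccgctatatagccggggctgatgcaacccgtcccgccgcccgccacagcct
Vdr: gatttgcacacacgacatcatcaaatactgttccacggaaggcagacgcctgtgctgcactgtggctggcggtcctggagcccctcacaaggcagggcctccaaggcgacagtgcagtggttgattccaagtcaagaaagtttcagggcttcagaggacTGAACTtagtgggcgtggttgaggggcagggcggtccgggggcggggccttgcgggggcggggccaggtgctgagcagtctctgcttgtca
Ccl6 held a second half-site, TGAACT, with its first base at 31 after the start and so beyond the bases shown. The capitals mark letters that match, and no binding was measured in these cells.

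Genes higher in Vdr-/- included a nuclear RNA, lipid and matrix genes. Malat1, an abundant nuclear long noncoding RNA, read 1102.6 (wild type) and 4472.9 (Vdr-/-) with IFN-γ by the called probe set, and 1065.5 and 7735.0 with both agents. Both Vdr-/- arrays were clearly above both wild-type arrays, and the difference was 2.44 log2 (SE 0.358, limma adjusted p = 7.66e-08). The other 4 Malat1 probe sets gave 0.72, 0.42, -0.23 and -0.51 log2, and none was called, so the gene's probe sets disagree. On the 4 arrays without IFN-γ the called probe set read 8534.5 to 13017.5, above all 4 IFN-γ arrays. It was the one probe set still called with no calcitriol block (adjusted p = 0.00352), and with Ccl6 1 of the 2 still called under the stricter signal filter (0.0123 each).

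Gtpbp2, a GTP-binding protein linked to ribosome rescue, read 700.2 and 2570.4 with IFN-γ, then 1354.2 and 3525.7 with both (1.63 log2, SE 0.357, limma adjusted p = 0.00779). Its other 2 probe sets gave 0.34 and 0.72 log2 and were not called. Phf21a, a reader of unmethylated histone H3, read 35.4 and 306.3, then 59.5 and 183.3 (2.37 log2, SE 0.582, adjusted p = 0.0357). For both genes the Vdr-/- arrays were above the wild-type arrays in each pair by at least 2.60-fold. The second Phf21a probe set read 138.9 and 143.2 in the first pair, then 8.9 and 116.3, and was not called (1.5 log2).

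Pltp, Igfbp4, Mmp14 and Zdhhc14 were low on the wild-type array with IFN-γ and calcitriol. Pltp, which moves phospholipids between lipoproteins, read 1009.5 and 1152.6 with IFN-γ, then 90.3 and 908.6 with both (1.76 log2, SE 0.384, limma adjusted p = 0.00757). Without the wild-type array with both agents the difference was 0.02 log2, and the other Pltp probe set, with 1300.6 and 1484.5, then 332.5 and 1442.8, was not called (1.15 log2, adjusted p = 0.308). In the IFN-γ pair both probe sets differed by 0.19 log2. Igfbp4, a binding protein of insulin-like growth factors, read 277.8 and 439.0, then 54.5 and 501.5 (1.93 log2, SE 0.447, adjusted p = 0.02), and all 6 of its probe sets were higher in Vdr-/-, by 0.60 to 1.93 log2. The Igfbp4 difference was 0.76 log2 without the wild-type array with both agents. Mmp14, a membrane-bound matrix metalloproteinase, read 252.2 and 507.2, then 90.4 and 513.7 (1.76 log2, SE 0.433, adjusted p = 0.0357), and its brighter probe set gave 1.27 log2 (adjusted p = 0.176). Without the wild-type IFN-γ array Pltp gave 3.50 and Igfbp4 3.11 log2. Without the wild-type array with both agents Mmp14 gave 1.02 and Zdhhc14 0.95 log2. Igfbp4 and Mmp14 were also higher in Vdr-/- in the IFN-γ pair, by 0.66 and 1.01 log2. Zdhhc14, of a family of palmitoyltransferases, read 925.7 and 1641.0, then 394.6 and 1944.4 (1.56 log2, SE 0.362, adjusted p = 0.02) by a probe set whose suffix _x_at marks probes that can match other transcripts. Its other 5 probe sets gave 0.13 to 1.26 log2 and were not called.

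A fold rule that borrows no spread gave a longer list that was mostly dim. Past 2-fold in both pairs in the same direction were 457 probe sets, 197 higher in Vdr-/- (1.28% of those tested) and 260 lower (1.69%), and 429 were past 2-fold in opposite directions. Of the 457, 237 had at least 1 array at the floor of 14.9, and the median of their brightest array was 107.1, against 141.1 for all tested. Ceacam1, a cell adhesion molecule, read 154.8 and 6.0, then 133.5 and 9.9, so that both Vdr-/- arrays were under the floor, and it was not called (limma adjusted p = 0.15). Its difference was -3.27 log2 with values under 14.9 set to that floor, and -1.90 with the floor at the 40th percentile, so its size depends on the floor. Tmem106c, a membrane protein gene close to Vdr on chromosome 15, read 109.3 and 8.3, then 153.8 and 14.1 by one probe set (-3.12 log2, -1.76 with the higher floor, adjusted p = 0.286), while its other probe set gave 0.18 log2. Capn15, a calpain, read 113.1 and 11.8, then 97.3 and 16.5 (-2.74 log2, -1.45 with the higher floor, not called), and its other 3 probe sets gave -0.71, -0.40 and 0.44 log2. The mean over all probe sets of the gene was -0.53 log2 for Ceacam1.

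In the other direction the probe sets with the largest differences in both pairs were also near the floor in wild type. Cops7a, a subunit of the COP9 signalosome, read 12.1 and 127.4, then 21.6 and 125.9, and Syncrip, an RNA-binding protein, read 33.7 and 190.4, then 12 and 83.8. Gtf2ird1, a transcription factor, read 10.2 and 89.6, then 13.8 and 125.3. St3gal2, a sialyltransferase, read 7.7 and 85.9, then 8.8 and 90.5, and Rabl6, a small GTPase, 10.5 and 91.4, then 14.7 and 80.3. For the last 3 genes both wild-type arrays were under the floor, and the size of the difference depends on it. With the floor at 14.9 and then at the 40th percentile, the difference was 2.82 and 1.72 log2 for Cops7a, 2.49 and 1.72 for Syncrip, 2.83 and 1.46 for Gtf2ird1, 2.56 and 1.20 for St3gal2, and 2.52 and 1.16 for Rabl6. None of these 5 was called, with limma adjusted p-values of 0.338, 0.428, 0.564, 0.798 and 0.821 in the order Cops7a, Syncrip, Gtf2ird1, St3gal2 and Rabl6. Over all probe sets of each gene, in the same order, the mean difference was 1.38, 1.14, 1.60, 0.96 and 0.55 log2.

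Requiring the pooled median signal on all 4 arrays, a rule chosen after seeing the data, left 39 of the 457 probe sets, 24 higher and 15 lower in Vdr-/-. Of the lower ones 4 are given, chosen after their values were seen. Slc40a1, the iron exporter ferroportin, read 130.5 and 60.6, then 444.7 and 117.8 (-1.51 log2, limma adjusted p = 0.465). Nme1, a nucleoside diphosphate kinase, read 284.1 and 114.7, then 562.0 and 139.4 (-1.66 log2, 0.116), and Cd82, a tetraspanin, 414.0 and 196.4, then 655.9 and 177.7 (-1.48 log2, 0.152). Litaf, an endosomal protein induced by lipopolysaccharide, was the brightest, with 3249.9 and 1564.1, then 4784.0 and 2368.2 (-1.03 log2, 0.477). None of these 4 passed the test. Their genotypes did not overlap, which the rule of 2-fold in both pairs favours, and 35.8% of all tested probe sets had no overlap. The brighter Slc40a1 probe set gave -1.35 log2, while a dimmer one of Nme1 gave 0.34.

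Of the higher ones 6 are given. Hnrnpk, an RNA-binding protein, read 220.6 and 590.7, then 275.4 and 688.6 (1.37 log2, limma adjusted p = 0.176). The splicing factors Srsf1 and Srsf11 gave 1.30 and 1.26 log2 and Pabpn1, which binds poly(A) tails, 1.18 log2, each from signals between 60.7 and 243.9. Oga, which removes O-GlcNAc from proteins, read 527.1 and 1185.4, then 404.4 and 914.5 (1.17 log2, 0.324). Igf1, a growth factor that macrophages secrete, read 225.5 and 488.4, then 147.3 and 387.6 (1.26 log2, 0.465). The 2 pairs gave nearly the same difference for Oga, 1.17 and 1.18 log2. Other probe sets of Hnrnpk, Srsf11, Pabpn1, Igf1 and Srsf1 gave smaller differences. The brightest gave 0.14 log2 for Hnrnpk, 0.51 for Srsf11, 0.43 for Pabpn1 and 0.46 for Igf1, and the others of Srsf1 ran from -0.26 to 0.59. Oga had 5 probe sets, and only the one above is given here. No list of RNA processing genes was tested, and these names were picked from the 39 after their values were seen.

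**Figure D3:**
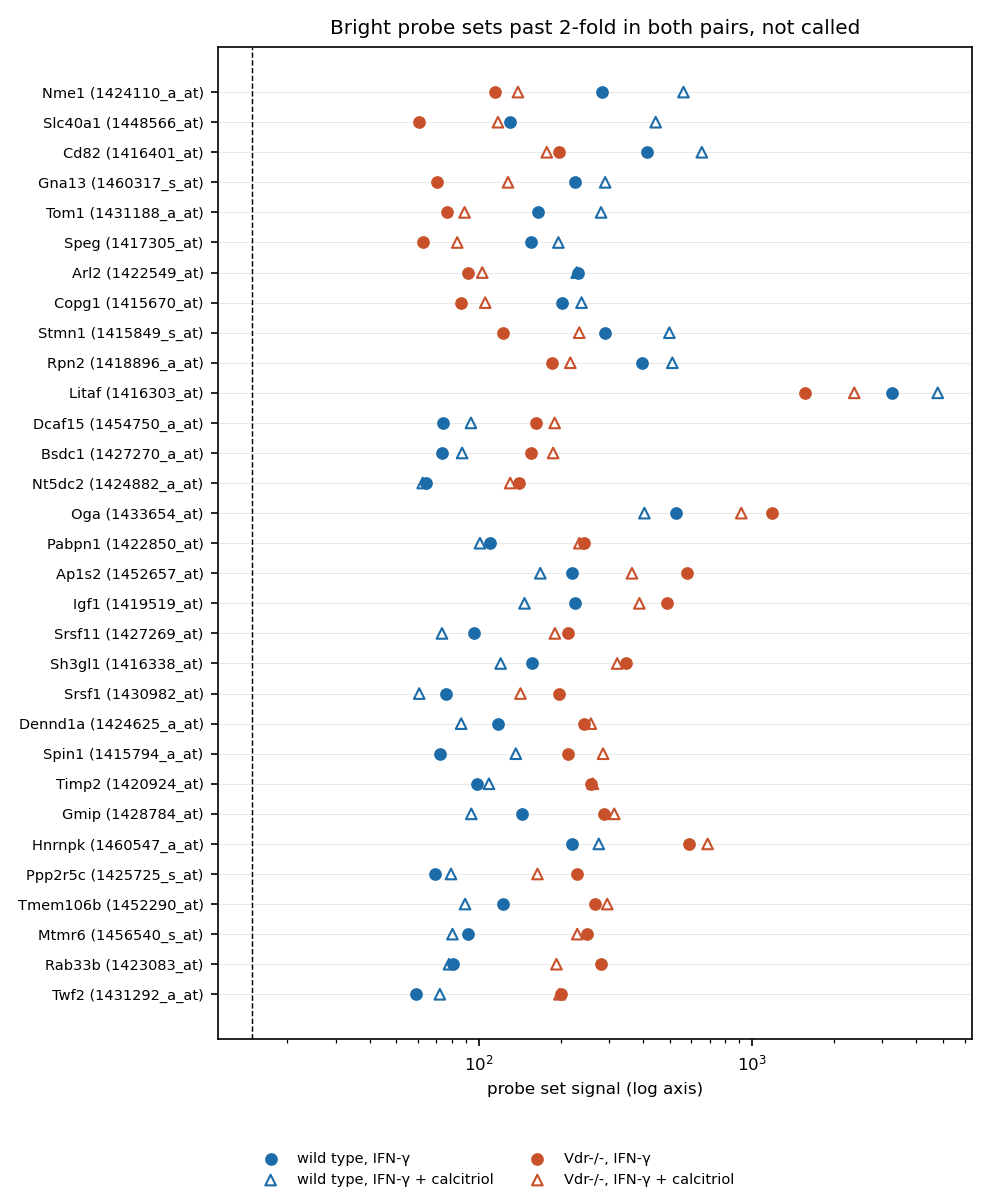
Signal (log axis) on each of the 4 IFN-γ arrays for the named probe sets past 2-fold in both pairs, with all 4 arrays at or above 56.6, that limma did not call; circles are IFN-γ, triangles IFN-γ with calcitriol, blue wild type and orange Vdr-/-, and the dashed line is the floor of 14.9. Blue symbols lie right of orange ones from Nme1 to Litaf, and left of them from Dcaf15 to Twf2, as the rule requires.

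The 5 lists of interferon response genes given here held no gene called for genotype. Outside them, the called probe set with no single gene name and a difference of -1.49 log2 was higher with IFN-γ. It read 101.9 (wild type) and 99.7 (Vdr-/-) untreated, 1555.5 and 1180.1 with IFN-γ, and 8931.7 and 1489.5 with both. Of 12 interferon-inducible GTPases, 18 genes of IFN-γ receptor and JAK-STAT signalling, 23 type I interferon-stimulated genes, 14 of MHC class II presentation and 16 of MHC class I presentation and the immunoproteasome, 0 were called in either direction, and 2, 0, 4, 0 and 0 had an unadjusted p under 0.05. Of all genes 0.144% were called and 5.5% had an unadjusted p under 0.05. By their brightest probe set, 2.8% of all genes were past 2-fold in both pairs, and 0 genes of these 5 lists were. Irf1, an interferon-induced transcription factor, read 4098.1 and 3710.8 with IFN-γ, then 3348.8 and 4093.0 with both, a difference of 0.07 log2 (SE 0.364). Gbp2, a guanylate-binding protein, read 7395.9 and 3775.6, then 7384.1 and 5027.9 (-0.76 log2, limma adjusted p = 0.925), and Iigp1, which attacks pathogen vacuoles, 5961.0 and 7846.4, then 7050.9 and 7294.4 (0.22 log2). Irf1 and Iigp1 thus differed by less than their SE, and Gbp2 was lower in both pairs without passing the test. Cd74, the invariant chain of MHC class II, read 19726.4 and 13362.2, then 15206.8 and 18803.1 (-0.13 log2, SE 0.418). Ciita, its master regulator, gave 0.38 and 0.08 log2 by 2 probe sets, H2-Aa -0.42, H2-K1 0.01 and B2m -0.15 log2. The T-cell attracting chemokine Cxcl9 read 5632.9 and 4311.3, then 3527.2 and 4422.6 (-0.03 log2, SE 0.368). The sign of the Cd74, Cxcl9 and Ciita differences depends on the normalization or on single arrays. Ifitm3, an antiviral membrane protein named after its values were seen, read 1115.9 and 597.5, then 2792.7 and 759.0, with no overlap (-1.39 log2, SE 0.361, limma adjusted p = 0.0683). The 95% intervals were -0.64 to 0.79 log2 for Irf1, -0.95 to 0.69 for Cd74 and -0.75 to 0.69 for Cxcl9.

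The medians of several of these lists had opposite signs in the 2 pairs. For type I interferon-stimulated genes the median difference was -0.27 log2 in the IFN-γ pair and 0.70 in the pair with calcitriol, and for 32 activation and costimulatory receptors -0.30 and 0.84. MHC class II genes gave -0.47 and 0.16, and the GTPases -0.19 and 0.22. Over all 9034 genes the medians were 0.00 and -0.02. In the activation receptor list 12 genes were higher and 20 lower in Vdr-/- with IFN-γ, and 25 higher and 7 lower with both agents. Over all genes 4451 were higher and 4373 lower in the first pair, and 4177 higher and 4621 lower in the second. Its brightest genes, Fcer1g (8621.4 and 7618.2, then 6096.4 and 8946.8) and the inhibitory Fc receptor Fcgr2b (5409.7 and 6161.4, then 1831.8 and 5726.6), were lowest on the wild-type array with both agents. Cd14, the lipopolysaccharide co-receptor, read 935.8 and 1036.9, then 228.3 and 835.1 (1.01 log2, SE 0.376, limma adjusted p = 0.58), with the same low array, and gave -0.01 log2 without that array and 2.03 without the wild-type IFN-γ array. Of the 32 genes of this list 0 were called and 4 had an unadjusted p under 0.05, against 0.144% and 5.5% of all genes.

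**Figure D4:**
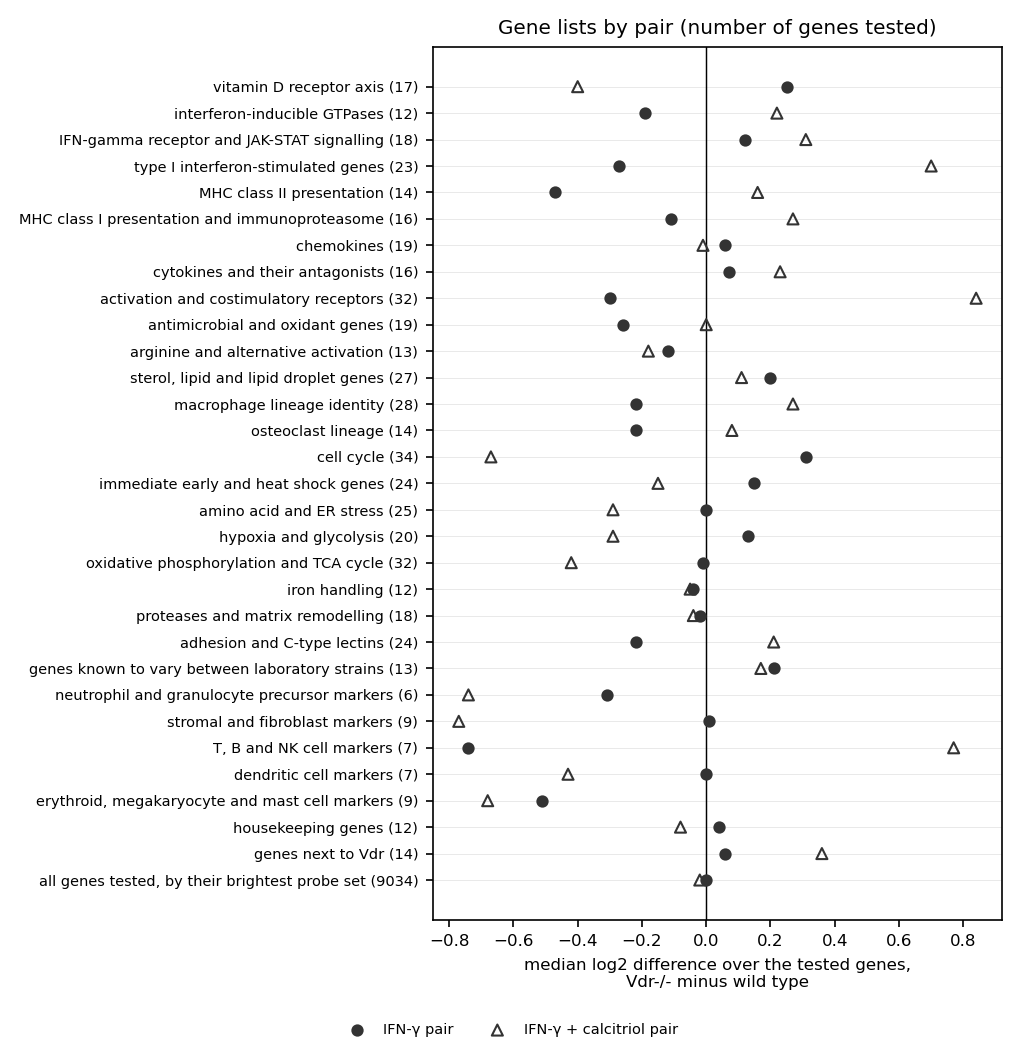
Median log2 difference (Vdr-/- minus wild type) over the tested genes of each list, by brightest probe set, in the IFN-γ pair (filled circles) and in the IFN-γ with calcitriol pair (open triangles), with the number of tested genes in brackets. Circle and triangle lie on opposite sides of 0 for type I interferon-stimulated genes, activation receptors and cell cycle genes.

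No cytokine, nitric oxide or arginine gene was called. Tnf read 240.2 and 218.8, then 161.5 and 189.0 (0.05 log2, SE 0.469). Nos2 was at most 10.0 on 3 of the 4 arrays and read 68.0 in wild type with both agents, and Arg1 was at most 9.3 on the same 3 and 56.8 there. Neither had a level above the floor on both arrays of a genotype. The Il12b probe set that was tested read 5.1 and 45.9, then 73.6 and 11.1. Mrc1, the mannose receptor of alternative activation, read 76.0 and 150.2, then 348.3 and 128.3 (-0.23 log2, SE 0.51), so the pairs went opposite ways, and the difference was 0.87 without the wild-type array with both agents. Of 16 tested cytokine genes and 13 of arginine metabolism and alternative activation, 0 were called, and 2 and 1 had an unadjusted p under 0.05. Of all genes 0.144% were called and 5.5% had an unadjusted p under 0.05.

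In the chemokine list 1 of 19 tested genes was called, Ccl6, against 0.144% of all genes. Ccl5, another T-cell attractant, read 3613.3 and 3962.8, then 2535.0 and 3951.8 (0.39 log2, SE 0.363) and was not called. In the vitamin D receptor axis 1 of 17 tested genes was called, Vdr. Cyp24a1 read 43.1 and 21, then 161.7 and 3.1 (-2.24 log2, SE 1.08, limma adjusted p = 0.882), highest in wild type with calcitriol, and its second probe set gave -0.40 log2. Cyp27b1 read 25.0 and 19.8, then 73.7 and 2.5 (-1.32 log2, SE 1.47). Both were dim and highest on the wild-type array with both agents, and neither passed the test. Rxra, the partner receptor, gave 0.47 and -1.29 log2 by its 2 probe sets. The list's median was 0.25 log2 in the IFN-γ pair and -0.40 in the pair with calcitriol.

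Among metabolic and growth lists 1 gene was called. In hypoxia and glycolysis 1 of 20 genes was called, Ldha (0.144% of all genes), and the list's medians were 0.13 and -0.29 log2. Of 32 genes of oxidative phosphorylation and the TCA cycle 0 were called, 3 had an unadjusted p under 0.05, and 26 were lower in Vdr-/- with both agents against 17 with IFN-γ alone. Over all 9034 genes 4621 were lower with both agents and 4373 with IFN-γ alone, and 5.5% had an unadjusted p under 0.05. Cox5b, a cytochrome oxidase subunit, was the brightest, with 5462.0 and 7667.9, then 11015.5 and 7437.7 (-0.04 log2, SE 0.384). Of 34 cell cycle genes 0 were called and 4 had an unadjusted p under 0.05, with medians of 0.31 log2 in the IFN-γ pair and -0.67 in the pair with calcitriol, where 30 genes were lower in Vdr-/- and 4 higher, against 4621 and 4177 of all genes. Pcna, the DNA polymerase clamp, read 3518.6 and 2028.3, then 4173.1 and 3598.9 (-0.50 log2, SE 0.361). Of 27 sterol and lipid genes 0 were called by their brightest probe set, and Fasn, fatty acid synthase, was past 2-fold in both pairs, with 43.2 and 107.7, then 46.4 and 162.8 (1.56 log2, limma adjusted p = 0.769). Of all genes 2.8% were past 2-fold in both pairs.

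Adhesion, protease and osteoclast lists each held 1 dim gene past 2-fold in both pairs, of 24, 18 and 14 genes tested. By their brightest probe set, 2.8% of all genes were past 2-fold in both pairs. In the adhesion list 1 gene was called, lower in Vdr-/-, and in the protease and osteoclast lists 0, against 0.144% of all genes. Siglec1, a sialic acid receptor of macrophages, read 99.5 and 45.3, then 86.2 and 10.2 (-1.83 log2, limma adjusted p = 0.902), while another of its probe sets gave 1.24 log2. Mmp12, the macrophage elastase, read 81.9 and 35.1, then 149.9 and 48.4 (-1.43 log2, 0.925), and Oscar, an osteoclast receptor, 4.1 and 58.7, then 5.6 and 62.0. The dendritic cell list, with 7 genes tested, held Itgax, which was called. It also held Flt3, the receptor of dendritic cell precursors, with 70.0 and 14.0, then 93.0 and 30.2 (-1.93 log2, limma adjusted p = 0.97). The list summed to 3260.0 and 3860.0 in wild type and 2870.0 and 2850.0 in Vdr-/-, Ccr7 read at most 18.7 on the 4 arrays, and the part of these cells in the result was not tested. Fewer such cells and less RNA per cell cannot be told apart.

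The genes beside Vdr on its chromosome were examined because a disrupted gene can carry flanking sequence of another strain. Of the 40 nearest genes 19 had a probe set and 14 were tested. None was called, and 2 of the 14 had an unadjusted p under 0.05, against 5.5% of all genes. By their brightest probe set 1 of the 14 was past 2-fold in both pairs, against 2.8% of all genes. This was Senp1, a SUMO protease, with 40.3 and 115.9, then 24.4 and 106.7 (1.83 log2, limma adjusted p = 0.769), while its second probe set gave -0.21 log2. Tmem106c, also close to Vdr, had a dim probe set past 2-fold lower in both pairs (-3.12 log2, limma adjusted p = 0.286). The mean over its 2 probe sets was -1.47 log2. The median over the 14 was 0.17 log2, as against -0.03 over all genes. For 13 genes known to vary between laboratory strains the median was 0.28 log2, and 0 were called or had an unadjusted p under 0.05.

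The same genotype difference on the 4 arrays without IFN-γ gave a separate look, with the reservation that Vdr went against the labels of the untreated pair. The arrays of wild-type calcitriol and of the one labelled Vdr-/- untreated had Gapdh ratios of 7.67 and 4.82. Of the 21 called probe sets 16 had the same direction in the calcitriol pair (76.2%, against 50.2% of all tested) and 13 in the untreated pair (61.9%, against 48.2%), and 8 in both. With calcitriol alone Dnmt3a read 1749.8 (wild type) and 210.6 (Vdr-/-), a difference of -3.05 log2, and Jdp2 171.5 and 30.0, or -2.52 log2. Hopx (-1.91 log2) and Itgax (-1.55) were also lower, and Pltp (1.83 log2) and Igfbp4 (2.05) higher, in Vdr-/- in that pair. Zdhhc14, which was also low on the wild-type array with IFN-γ and calcitriol, went the other way with calcitriol alone (-0.80 log2). Malat1 (-0.11 log2), Gtpbp2 (-0.68) and Phf21a (-0.52) also had the opposite direction there. So did Psmb7, with 62.3 in wild type and 651.3 in Vdr-/-, or 3.39 log2. Of the 457 probe sets past 2-fold in both IFN-γ pairs, 46.8% had the same direction in the untreated pair and 49.2% in the calcitriol pair, close to the shares of all tested. Of the 39 bright ones, 26 and 19 did.

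**Figure D5:**
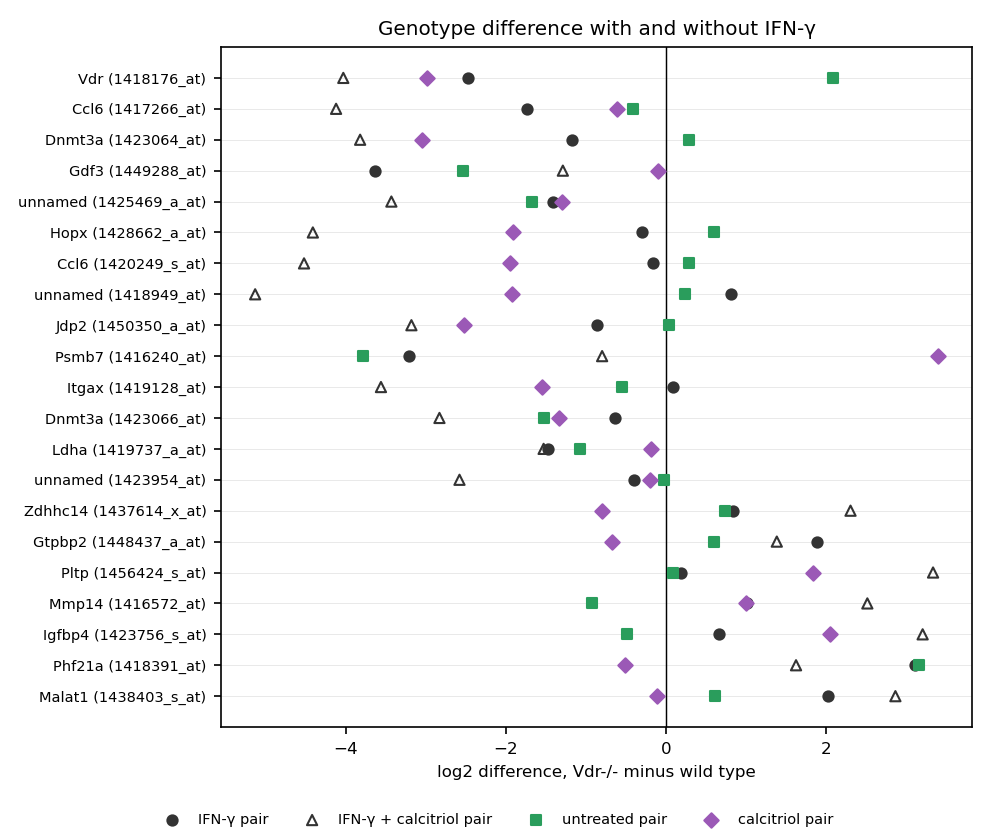
Genotype difference (log2, Vdr-/- minus wild type) of the 21 called probe sets in each of the 4 array pairs: IFN-γ (filled circles), IFN-γ with calcitriol (open triangles), untreated (green squares) and calcitriol alone (purple diamonds). For Dnmt3a, Hopx, Jdp2 and Itgax the diamond lies on the same side of 0 as the triangle, and for Psmb7 the diamond lies at 3.39, opposite the other 3 pairs.

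Whether the genotype difference itself changed with IFN-γ was tested on all 8 arrays. Limma called 0 probe sets for this difference, and 222 had an unadjusted p under 0.05, so no gene can be called particular to activated cells. Ccl6 gave -2.42 log2 and Malat1 2.19 log2 for the difference with minus without IFN-γ, each with an adjusted p of 1. Without the untreated pair 264 were called, 19 higher and 245 lower, and without the calcitriol pair 134, 121 higher and 13 lower. These 2 fits, like the main one, took the spread from the trend with signal alone. The untreated and the calcitriol pair each hold 1 of the 2 arrays with the highest 3' to 5' ratios, whose part in the calls was not tested.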

How the data were processed

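Signals of the 8 one-colour mouse arrays were taken as deposited by the authors: linear intensity values per probe set, scaled to a common 2% trimmed mean. Software, background correction and detection calls were not stated. Of 22690 probe sets 64 controls were left out; platform annotation gave 20380 of the rest 1 gene symbol, 691 several and 1555 none.

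Signals of the 4 IFN-γ arrays were floored at their pooled 25th percentile (14.9) and put on the log2 scale, and tests covered the 15377 probe sets that reached the pooled median (56.6) on at least 1 of these arrays. Genotype was fitted with limma 3.58.1 in R 4.3.3, with calcitriol as a block and an intensity trend, at a Benjamini-Hochberg adjusted p under 0.05. All differences are Vdr-/- minus wild type on floored log2 signals. The interaction with IFN-γ used all 8 arrays with the 4 array pairs as blocks. On simulated data the share of false calls was above what the threshold allows. List values use each gene's brightest probe set.

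Named genes were, per direction, the 12 called probe sets with the largest differences, filled up with named ones past 2-fold in both pairs, plus fixed receptor, activation and sex-linked genes, and of each list up to 4 called or past 2-fold, otherwise the 2 brightest. The members and lists were chosen with earlier results of these data known. Genes past 2-fold with all 4 arrays bright, Csf1r, Adgre1, Lyz2 and Ifitm3 were named after their values were seen. Alternatives changed the normalization, floor, filter, spread, block and arrays.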

Additional observations from a re-analysis of the deposited data

Results flagged for a closer look

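The genotype difference of Gtf2ird1 had one direction in both IFN-γ pairs and the other in both pairs without it. Its probe set read 10.2 (wild type) and 89.6 (Vdr-/-) with IFN-γ, and 13.8 and 125.3 with IFN-γ and calcitriol. It read 67.4 and 16.7 untreated, and 122.7 and 119.4 with calcitriol. The difference with minus without IFN-γ was 3.86 log2 and did not pass limma's test (adjusted p = 1). Ceacam1 showed the reverse order: it read 154.8 and 6.0 with IFN-γ and 133.5 and 9.9 with both, against 114.8 and 134.1 untreated and 51.2 and 61.7 with calcitriol. Its difference with minus without IFN-γ was -3.52 log2 (limma adjusted p = 1). Both were dim, and Vdr went against the labels of the untreated pair.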

How the results depend on the processing

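Of 21 calls under IFN-γ, quantile normalization kept 20 of its 21, and floors at the 10th and 40th percentile kept 18 each of 23 and 18. The stricter filter (75th percentile) gave 2, Ccl6 and Malat1, and no calcitriol block gave 1. No filter, a filter on the mean, no intensity trend, the spread of all 8 arrays and 1 genotype term over all 8 arrays gave 0 each in limma, with 808, 452, 795, 282 and 515 at an unadjusted p under 0.05. Leaving out any of the 4 arrays gave 0 calls, with 307 to 2068 at an unadjusted p under 0.05, in fits without the block. All 21 kept their direction in these settings. The filters, block, trend and spread leave the difference itself unchanged. Direction could change only with the normalization, the floors, the left-out arrays or the single genotype term.

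The count past 2-fold in both pairs was 53 with the stricter filter, 154 with the filter on the mean, 226 with the floor at the 40th percentile and 39 with all 4 arrays at or above the pooled median, chosen after seeing the data. Quantile normalization gave 447, of which 234 were higher in Vdr-/- and 213 lower, against 197 and 260. The interaction with IFN-γ ran from 0 to 264 calls when 1 array pair was left out. Over the named probe sets, 418 values counted as kept and 235 no longer passed. A value counted as kept if its direction and call stayed the same. A probe set not called in the main fit thus counted as kept if it again was not called, whatever its size. An average over a gene's probe sets counted as kept if it lay within the SE of the main difference. All 235 were values of the 21 called probe sets. Another 18 values moved by more than the SE when a gene's probe sets were averaged. Of all averages 3 changed sign, and that of Il12b, from -0.34 to 0.11, was among the values counted as kept. A further 21 values changed sign, all of probe sets that were not called. These were Cd74 (0.02) and Cxcl9 (0.04) with quantile normalization, Il12b with the floor at the 10th percentile (0.22), and, with 1 genotype term over all 8 arrays, the second Cyp24a1 probe set (0.51), the second Ciita probe set (-0.45) and the brightest of Xist (-0.05). The other 15 came from leaving out 1 array, where values ran as follows: the second Cyp24a1 probe set -1.41 to 0.61, Irf1 -0.07 to 0.22, Ciita -0.06 to 0.83, its other probe set -0.43 to 0.59, Cd74 -0.37 to 0.12, Cxcl9 -0.37 to 0.31, Tnf -0.24 to 0.33, Il12b -1.49 to 0.81, Cd14 -0.01 to 2.03 and Mrc1 -1.33 to 0.87. The cause of these changes was not tested. The Cyp24a1 probe set with -2.24 log2 kept its sign, from -3.19 to -1.28 with 1 array left out. No paired analysis was possible because each group held 1 array, so replicate numbers pair nothing; the pairs of the fit are those of treatment.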
